A study of Mus musculus with 14 samples.

Results

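The semaphorins, Slits and netrins are the main families of axon guidance cues, and they act through plexins, neuropilins, Robo receptors and the netrin receptors DCC and UNC5. The genes of these cues and receptors were taken by their symbols, and 46 of the 23284 gene symbols counted in mouse forelimb buds matched. They are 7 class 3, 6 class 4 and 7 class 5 to 7 semaphorins, 9 plexins, 2 neuropilins, 3 Slits, 3 Robo receptors, 4 netrins and 5 netrin receptors. Of these 46 genes, 41 were among the 12393 genes tested. Plxna3 and Plxnb3 lie on chromosome X, whose genes were left out of the tests, and Ntn5, Robo3 and Unc5d had too few reads (a minimum of 1 CPM, counts scaled to the size of the library, in at least 3 samples was set).

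RNA-seq was done on 14 samples, each made from both forelimbs of 1 embryo of the NMRI strain. Wild-type embryos (Smad4+/+ PrxCreT/+) and Smad4Δ/Δc PrxCreT/+ mutants were compared at gestational day E10.0, when the embryos have 30 somites, and at E10.5, with 35 somites. At either stage there were 3 wild-type and 4 mutant samples. SMAD4 is the common partner of the SMAD proteins that carry BMP and TGFβ signals into the nucleus. Both genotypes carry the PrxCre transgene, whose Cre recombinase acts in the limb mesenchyme, where it inactivates the Δc allele of the mutants. The Δ allele is null in every cell, so that the ectoderm, vessels, nerves and blood of a mutant bud also lack a copy of Smad4 that wild-type cells have. The labels name Smad4 flox/flox females for the cross and the study's methods Smad4 flox/+ females, and only the latter can give Smad4+/+ embryos. The comparisons ask which of the guidance genes differ with Smad4 at each stage, which differ between the stages in each genotype, and whether the difference between genotypes depends on the stage.

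Guidance cues were first described in growing axons, which turn towards or away from them, and the same cues also steer blood vessels, migrating neural crest and mesenchymal cells. Class 3 semaphorins are secreted, and most of them bind a neuropilin, which holds the ligand while a plexin A or plexin D1 carries the signal. Most other semaphorins stay on the cell membrane and bind plexins directly. Slits are secreted repellents that bind Robo receptors, and netrins attract through DCC and repel through UNC5 receptors. In the limb, motor and sensory axons, vessels and muscle precursors enter a bud that is mostly mesenchyme.

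Between 34066930 and 61691258 reads per sample fell on genes, and the 46 guidance genes took 0.217% of them on average. Smad4 itself had 152 to 169 CPM in wild type and only 36.9 to 46.0 CPM in mutants at E10.0, and 163 to 167 and 32.9 to 40.7 CPM at E10.5, so that every mutant sample was below every wild-type sample. Mutant replicates 4 and 5 of both stages stood apart: the ribosomal RNA precursor took 1.72% to 8.05% of their reads on genes, against 0.151% to 0.478% in the 10 other samples. Within a stage, these 2 libraries lay wholly above or below the 2 other mutant replicates for 56.6% of the genes tested at E10.0 and for 61.8% at E10.5. Groups this small also separate by chance for many genes. Among the 41 guidance genes tested, replicates 4 and 5 were higher for 20 and lower for 5 at E10.0, and higher for 5 and lower for 10 at E10.5. Over all genes tested these libraries were higher for 3484 and lower for 3529 at E10.0, and higher for 3711 and lower for 3949 at E10.5. All 4 are mutants, and with all samples in a fit their difference from the others is part of the difference between genotypes. The 10 other samples hold both genotypes at both stages, and results are also given for them alone. Values are CPM after TMM normalization, listed in the order of replicates 1, 2 and 3 for wild type, 1, 3, 4 and 5 for mutants at E10.0, and 1, 2, 4 and 5 for mutants at E10.5. A gene was called at a false discovery rate (FDR, the adjusted p of edgeR's exact test) of 0.1 or less if it also differed 1.2-fold or more. On simulated counts this test gave more false calls than its nominal FDR in all 4 comparisons, so that the FDR values printed may be too low. Each log2 fold change is given ± its standard error from the spread between samples.

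Guidance genes were present at very different levels. Per kilobase of exon, the plexins Plxnb2 (38.1 CPM per kb, mean of 14 samples), Plxna1 (21.3), Plxnd1 (17.1) and Plxnb1 (13.1) were among the most abundant. Plxnb2 encodes the receptor of class 4 semaphorins such as SEMA4C, and Sema4c was the highest class 4 semaphorin (19.9 CPM per kb). Plxnd1, the receptor of SEMA3E in vessels, was far above Sema3e (0.194 CPM per kb). Among the secreted class 3 semaphorins, Sema3f (18.9) and Sema3a (12.98) led, and their neuropilins Nrp2 and Nrp1 were at 22.1 and 12.8 CPM per kb. Sema5a, which carries thrombospondin repeats, was the highest of classes 5 to 7 (13.4 CPM per kb). Slit3 (6.63) was above Slit2 (2.91) and Slit1 (0.280), and Robo1 (13.2) above Robo2 (3.67). Ntn1 (9.14) was the highest netrin and Unc5b (16.9) the highest netrin receptor, while Dcc was at 0.220 CPM per kb. Unc5c (3.68) and Unc5a (0.508) were also above Dcc, the receptor through which netrins attract axons, and Unc5d (0.0796) was below it.

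**Figure D1:**
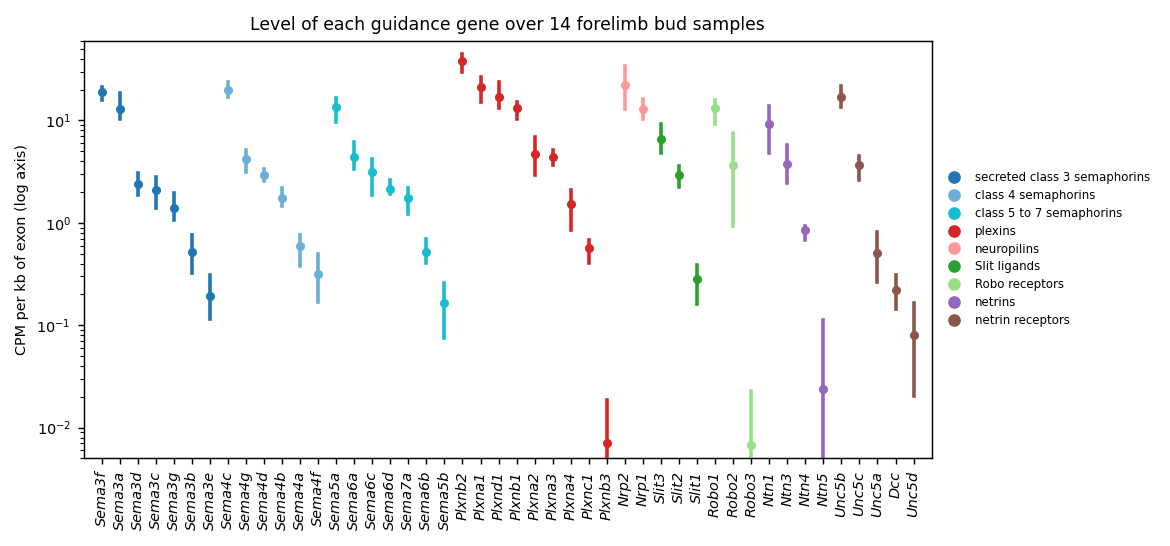
Level of each of the 46 guidance genes in CPM per kilobase of exon (log axis), ordered by role and then by level; the point is the mean of 14 samples and the bar runs from the lowest to the highest sample, with values under 0.005 cut at the lower edge. Plxnb2 is the highest at 38.1 CPM per kb.

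Some members share exon bases with another gene. The counting took no account of strand and set ambiguous reads apart, so that reads from such bases may be missing from the counts. In the GENCODE M1 annotation this concerned 25.9% of the exon bases of Ntn5 (shared with Sec1), 10.7% of Plxna1 (Gm16896), 4.66% of Ntn3, and 0.816% to 2.35% of Plxnb1, Ntn1, Nrp1, Plxna4 and Unc5a. The other members share none there. The study's methods name the refGene annotation, whose overlaps may differ.

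At E10.0, 4 guidance genes were higher in mutant forelimb buds (Ntn1, Plxna4, Robo1 and Nrp2) and 2 were lower (Unc5b and Sema6c), while 35 of the 41 tested were not called. Of all 12393 genes tested, 6.61% were called in this comparison, 3.33% higher and 3.28% lower. The median log2 fold change of the 41 members was 0.02 and that of all genes tested -0.02. At E10.5, 5 were higher (Ntn1, Plxna4, Sema6a, Robo2 and Nrp2) and 2 were lower (Unc5b and Sema3c), where 3.73% of all genes were called (2.19% higher, 1.54% lower). The median log2 fold change was then 0.03 for the members and -0.01 for all genes. Ntn1, Plxna4, Nrp2 and Unc5b were called at both stages in the same direction, which is 66.7% of the members called at E10.0 and 57.1% of those called at E10.5. Over all genes, the 194 genes called at both stages in either direction were 23.7% of the calls at E10.0 and 42% of those at E10.5. Of these, 182 went in the same direction. The wild-type and mutant samples did not overlap for 5 of the 41 members at E10.0 (17.8% of all genes) and for 9 at E10.5 (13% of all genes).

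**Figure D2:**
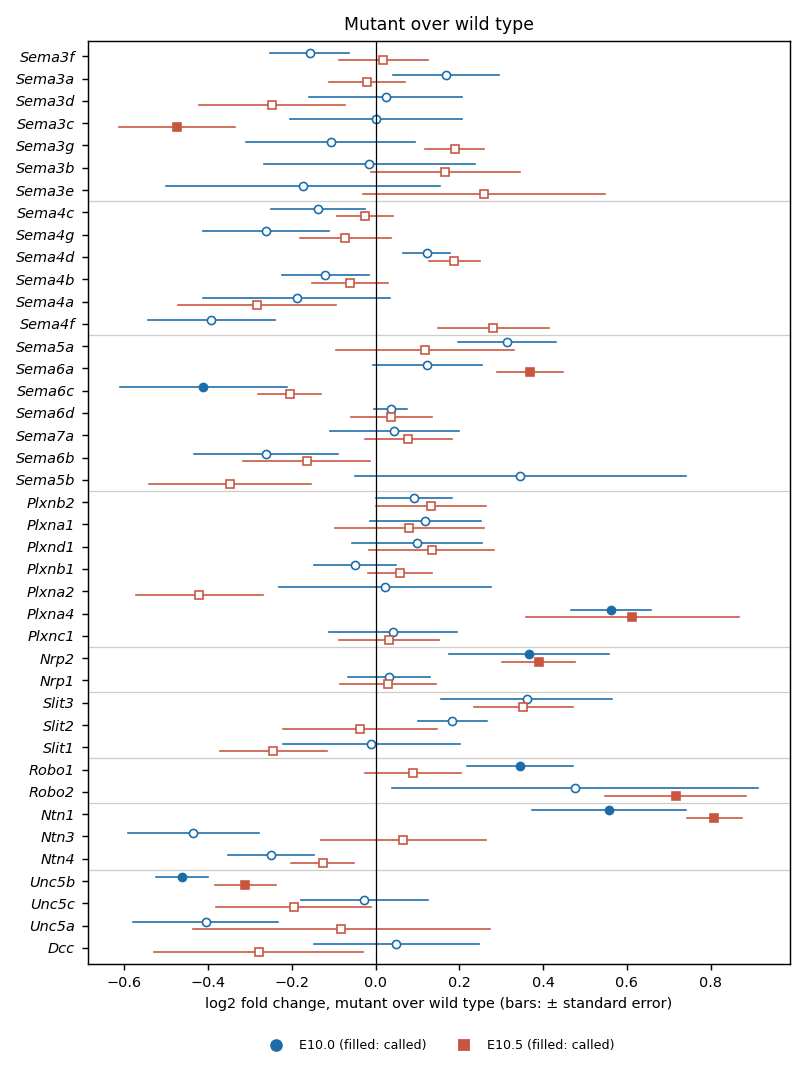
Log2 fold change of mutant over wild type for the 41 guidance genes tested, at E10.0 (circles) and E10.5 (squares), grouped by role; bars are ± 1 standard error and filled symbols are called. Ntn1, Plxna4 and Nrp2 lie to the right of 0 and Unc5b to the left with filled symbols at both stages.

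The netrins and their receptors held the members with the smallest p between genotypes, Unc5b at E10.0 and Ntn1 at E10.5. Ntn1, on chr11:68022866-68214325 of mm9, encodes netrin 1, the secreted ligand of DCC and the UNC5 receptors. At E10.0 it was at 45.2, 30.5 and 35.4 CPM in wild type and 52.1, 47.5, 57.6 and 61.1 CPM in mutants, and every mutant sample was above every wild-type sample (log2 fold change 0.56 ± 0.18, edgeR exact test, FDR = 0.000262). At E10.5 it was at 46.7, 44.2 and 51.1 CPM in wild type and 80.6, 80.1, 86.7 and 84.3 CPM in mutants, again without overlap and with a spread of 3.11 CPM (SD, n=4) around a mutant mean of 82.9 CPM (log2 fold change 0.81 ± 0.07, edgeR exact test, FDR = 3.16e-09). Both calls held with each sample left out in turn and under each of the 9 other settings tried. Leaving out mutant replicates 4 and 5 gave log2 fold changes of 0.44 (E10.0) and 0.77 (E10.5). The interaction of stage and genotype was not called for Ntn1 (log2 0.25 ± 0.20, edgeR quasi-likelihood test, FDR = 0.950).

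Unc5b, on chr10:60225358-60294329 of mm9, encodes a netrin receptor known for repelling growing vessel sprouts, and it moved opposite to Ntn1. Wild-type samples had 119, 127 and 119 CPM at E10.0 and the mutants 80.6, 88.8, 96.3 and 87.4 CPM. The highest mutant sample was below the lowest wild-type sample (log2 fold change -0.46 ± 0.06, edgeR exact test, FDR = 2.65e-05). At E10.5 the values were 112, 105 and 105 CPM in wild type and 79.4, 87.99, 97.1 and 81.7 CPM in mutants, also without overlap (log2 fold change -0.31 ± 0.07, edgeR exact test, FDR = 0.0185). The call at E10.0 held with each sample left out, and that at E10.5 was lost without wild-type replicate 1 or mutant replicate 1 or 5 of E10.5 (log2 -0.28 to -0.26, FDR 0.104 to 0.199).

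No other netrin or netrin receptor tested was called between the genotypes. Ntn3, a close relative of Ntn1, was at 19.5, 16.99 and 18.2 CPM in wild type and 11.97, 12.2, 18.00 and 11.9 CPM in mutants at E10.0. Mutant replicates 1, 3 and 5 were below all wild-type samples and replicate 4 was level with them (log2 fold change -0.44 ± 0.16, edgeR exact test, FDR = 0.113). Without mutant replicates 4 and 5 it was called lower (log2 -0.58, FDR = 0.0141). Ntn4, a netrin of basement membranes, had log2 fold changes of -0.25 and -0.13 at the earlier and the later stage. The log2 fold changes of Unc5a, Unc5c and Dcc ran from -0.41 to 0.05 in the earlier buds and from -0.28 to -0.08 in the later ones. Unc5d was below the filter with 9 to 51 reads per sample at E10.0. With no filter it was called higher in mutants there, at 0.701, 0.883, 0.847 and 0.738 CPM against 0.512, 0.184 and 0.308 CPM in wild type (log2 1.24, edgeR exact test, FDR = 0.0252), and not at E10.5 (log2 0.85, FDR = 0.275). Ntn5 was listed at 0 in 5 samples and at up to 0.177 CPM in the others.

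Among the receptors of semaphorins, Plxna4 and Nrp2 were higher in mutants at both stages. Plxna4, on chr6:32094565-32538192 of mm9, encodes plexin A4, which pairs with neuropilins to receive class 3 semaphorins and binds class 6 semaphorins directly. At E10.0 it was at 16.5, 15.9 and 13.4 CPM in wild type and 22.7, 22.4, 23.6 and 21.6 CPM in mutants, and the groups did not overlap (log2 fold change 0.56 ± 0.10, edgeR exact test, FDR = 0.0165). At E10.5 wild type had 16.8, 10.8 and 16.2 CPM and mutants 26.1, 24.5, 22.2 and 16.1 CPM, where mutant replicate 5 lay within the wild-type range (log2 fold change 0.61 ± 0.25, edgeR exact test, FDR = 0.00750). Either call was lost without a single wild-type library, replicate 3 at E10.0 (log2 0.49, FDR = 0.22) and replicate 2 at E10.5 (log2 0.44, FDR = 0.199). When mutant replicates 4 and 5 were left out, the values were 0.58 (E10.0) and 0.81 (E10.5) on the log2 scale.

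Nrp2, on chr1:62749859-62865269 of mm9, encodes neuropilin 2, the co-receptor of SEMA3F and of the lymphatic growth factor VEGFC. At E10.5 it was at 203, 215 and 226 CPM in wild type and 324, 273, 276 and 252 CPM in mutants, and every mutant sample was above every wild-type sample (log2 fold change 0.39 ± 0.09, edgeR exact test, FDR = 0.0723). At E10.0 the values were 175, 124 and 132 CPM and 193, 145, 207 and 196 CPM, and the groups overlapped, since wild-type replicate 1 was above mutant replicate 3 (log2 fold change 0.37 ± 0.19, edgeR exact test, FDR = 0.0746). The call at E10.0 was lost without wild-type replicate 2 or 3 or mutant replicate 1, 4 or 5 (FDR 0.134 to 0.43), and without both mutant replicates 4 and 5 (log2 0.25, FDR = 0.211). At E10.5 it was lost without any of the 3 wild-type samples or without mutant replicate 1 or 4 (FDR 0.126 to 0.344). Nrp1, the neuropilin of SEMA3A, had means of 67.1 ± 6.72 CPM (wild type, SD, n=3) and 68.6 ± 4.75 CPM (mutants, SD, n=4) at E10.0, and of 82.2 ± 7.91 CPM and 83.9 ± 9.43 CPM at E10.5. Its log2 fold changes of 0.03 and 0.03 were smaller than their standard errors.

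The other plexins were not called between the genotypes. Plxna2 was at 77.4, 60.3 and 76.9 CPM in wild type and 56.8, 59.2, 53.6 and 43.9 CPM in mutants at E10.5, without overlap but short of the threshold (log2 fold change -0.42 ± 0.15, edgeR exact test, FDR = 0.182). Plxna1, Plxnb1, Plxnb2, Plxnc1 and Plxnd1 had log2 fold changes between -0.05 and 0.12 at E10.0 and in the range of 0.03 to 0.13 at E10.5. Plxna3 ranged from 29.1 to 40.2 CPM over the 14 samples, and it was called in no comparison when chromosome X was kept. Plxnb3 had at most 0.120 CPM.

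Of the Slit receptors, Robo1 was called at E10.0 and Robo2 at E10.5. Robo1 lies on chr16:72663394-73046340 and Robo2 on chr16:73892551-74412070 of mm9, and both encode transmembrane receptors through which Slits repel axons. At E10.0 Robo1 was at 111, 95.4 and 88.4 CPM in wild type and 113, 111, 136 and 139 CPM in mutants (log2 fold change 0.34 ± 0.13, edgeR exact test, FDR = 0.0410). The lowest mutant sample was just above the highest wild-type sample, and mutant replicates 4 and 5 were the highest of all. Without those replicates Robo1 was not called (log2 0.21, FDR = 0.196), nor without wild-type replicate 2 or 3 or mutant replicate 5 alone (FDR 0.162 to 0.382). At E10.5 Robo1 had means of 133 ± 17.2 CPM (wild type, SD, n=3) and 142 ± 8.60 CPM (mutants, SD, n=4), with a log2 fold change of 0.09 ± 0.12. The interaction was not called (log2 -0.26 ± 0.17, edgeR quasi-likelihood test, FDR = 0.950), so that a difference between the stages was not shown.

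Robo2 was at 55.6, 62.5 and 79.3 CPM in wild type and 126, 103, 105 and 98.4 CPM in mutants at E10.5. Every mutant sample was above every wild-type sample (log2 fold change 0.72 ± 0.17, edgeR exact test, FDR = 0.0715). The call was lost without wild-type replicate 1 or 2 or mutant replicate 1 or 4 of E10.5 (log2 0.61 to 0.73, FDR 0.125 to 0.407), and it stood without both mutant replicates 4 and 5 (log2 0.81, FDR = 0.0772). At E10.0 the samples spread widely, with 34.7, 15.2 and 26.5 CPM in wild type and 40.7, 20.5, 33.5 and 47.2 CPM in mutants (log2 fold change 0.48 ± 0.44, edgeR exact test, FDR = 0.261). The interaction for Robo2 had a log2 value of 0.24 ± 0.47 (edgeR quasi-likelihood test, FDR = 0.963). None of their Slit ligands was called between the genotypes. Slit3 was at 41.6, 33.4 and 36.5 CPM in wild type and 44.95, 45.6, 55.4 and 44.00 CPM in mutants at E10.5, where the groups did not overlap (log2 fold change 0.35 ± 0.12, edgeR exact test, FDR = 0.333). Its log2 fold change at E10.0 was 0.36 with all samples and 0.02 without mutant replicates 4 and 5. Slit2 had log2 fold changes of 0.18 and -0.04, and Slit1 of -0.01 and -0.24, at E10.0 and E10.5.

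**Figure D3:**
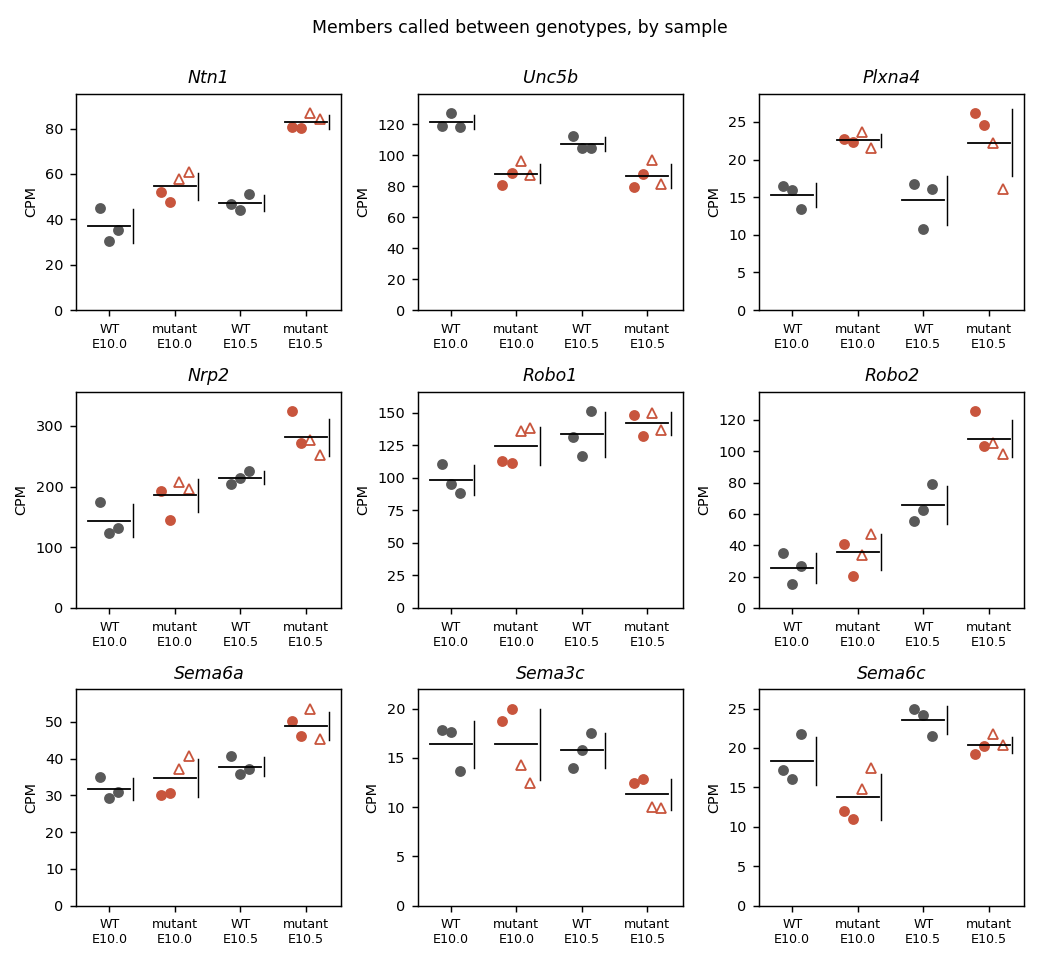
CPM of the 9 guidance genes called between the genotypes at either stage, 1 panel per gene with its own linear axis from 0; points are samples, open triangles are mutant replicates 4 and 5, horizontal lines are group means and vertical lines ± 1 SD. Ntn1 and Unc5b separate the genotypes at both stages, and Sema3c shows the 2 triangles below the other mutant samples at E10.5.

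Of the 20 semaphorins, 1 was called at E10.0 and 2 at E10.5. Sema6a, a transmembrane ligand of plexins A2 and A4, was at 40.7, 35.7 and 37.1 CPM in wild type and 50.3, 46.1, 53.5 and 45.3 CPM in mutants at E10.5. The lowest mutant sample was above the highest wild-type sample (log2 fold change 0.37 ± 0.08, edgeR exact test, FDR = 0.0457). The call was lost without wild-type replicate 2 or 3 or mutant replicate 1 or 4 of E10.5 (FDR 0.104 to 0.325). At E10.0 the log2 fold change was 0.12 ± 0.13.

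Sema6c, on chr3:94964379-94977946 of mm9, encodes another transmembrane semaphorin of class 6. At E10.0 it was at 17.2, 16.1 and 21.8 CPM in wild type and 12.02, 11.03, 14.8 and 17.5 CPM in mutants, and mutant replicate 5 lay within the wild-type range (log2 fold change -0.41 ± 0.20, edgeR exact test, FDR = 0.0776). Without mutant replicates 4 and 5 the difference was larger (log2 -0.65, FDR = 0.000305). Its call with all samples was lost without wild-type replicate 1 or 3 or mutant replicate 1 or 3 of E10.0, or wild-type replicate 1 or 2 or mutant replicate 2 of E10.5 (FDR 0.102 to 0.606). The samples of E10.5 bear on it through the shared estimate of the spread. At E10.5 the log2 fold change was -0.21 ± 0.07 (edgeR exact test, FDR = 0.735).

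Sema3c, on chr5:17080099-17236086 of mm9, encodes a secreted semaphorin known from the migration of cardiac neural crest. At E10.5 it was at 13.96, 15.8 and 17.5 CPM in wild type and 12.5, 12.9, 9.99 and 9.90 CPM in mutants, without overlap (log2 fold change -0.47 ± 0.14, edgeR exact test, FDR = 0.0985). Mutant replicates 4 and 5 were the lowest samples, and without them it was not called (log2 -0.30, FDR = 0.301). The call was also lost without wild-type replicate 1 or 2 of E10.0, wild-type replicate 2 or 3 of E10.5, or mutant replicate 4 or 5 of E10.5 (FDR 0.117 to 0.445). At E10.0 wild type had 17.9, 17.6 and 13.6 CPM and mutants 18.8, 19.96, 14.3 and 12.4 CPM, with the same mean in both.

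No other secreted semaphorin was called by the exact test with all samples. Sema3a, the SEMA3 best known for repelling motor and sensory axons, had log2 fold changes of 0.17 ± 0.13 at E10.0 and -0.02 ± 0.09 at E10.5. Sema3b, Sema3d, Sema3e, Sema3f and Sema3g lay between -0.17 and 0.02 at E10.0 and in the range of -0.25 to 0.26 at E10.5. Class 4 members, which include the immune semaphorins Sema4a and Sema4d, lay between -0.39 (Sema4f) and 0.12 (Sema4d) at E10.0 and between -0.28 (Sema4a) and 0.28 (Sema4f) at E10.5. Sema4b, Sema4c and Sema4g were inside these ranges. In the remaining classes Sema5a was at 164, 158 and 127 CPM in wild type and 191, 189, 173 and 190.4 CPM in mutants at E10.0, without overlap and not called (log2 fold change 0.31 ± 0.12, edgeR exact test, FDR = 0.199). Sema5b, Sema6b, Sema6d and Sema7a lay between -0.26 and 0.35 at E10.0 and in the range of -0.35 to 0.08 at E10.5.

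Leaving out mutant replicates 4 and 5 changed which semaphorins were called at E10.0. In that fit 11 guidance genes were called, 4 higher and 7 lower, where 16.4% of all genes were called. Ntn1, Plxna4, Unc5b and Sema6c were called in both fits. Sema3a (log2 0.30) and Sema5a (0.36) were added as higher, and Sema3f (-0.27), Sema3g (-0.45), Sema4c (-0.27), Sema4g (-0.38) and Ntn3 (-0.58) as lower. Their FDR values lay between 0.0141 and 0.0615. At E10.5 the same step left 6 members called (4.27% of all genes). The edgeR quasi-likelihood test called 4 members at E10.0 (4.85% of all genes), where Nrp2 (FDR = 0.138) and Sema6c (FDR = 0.124) were lost. At E10.5 it called 3 (2.75% of all genes), Ntn1, Plxna4 and Unc5b, and blocked by replicate number it called 6 at E10.0 (15.8% of all genes) and 3 at E10.5 (2.26% of all genes). Wild type has no replicate 4 or 5, so the block fits the level of these mutant libraries apart. Its genotype differences then rest mainly on the other replicates.

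**Figure D4:**
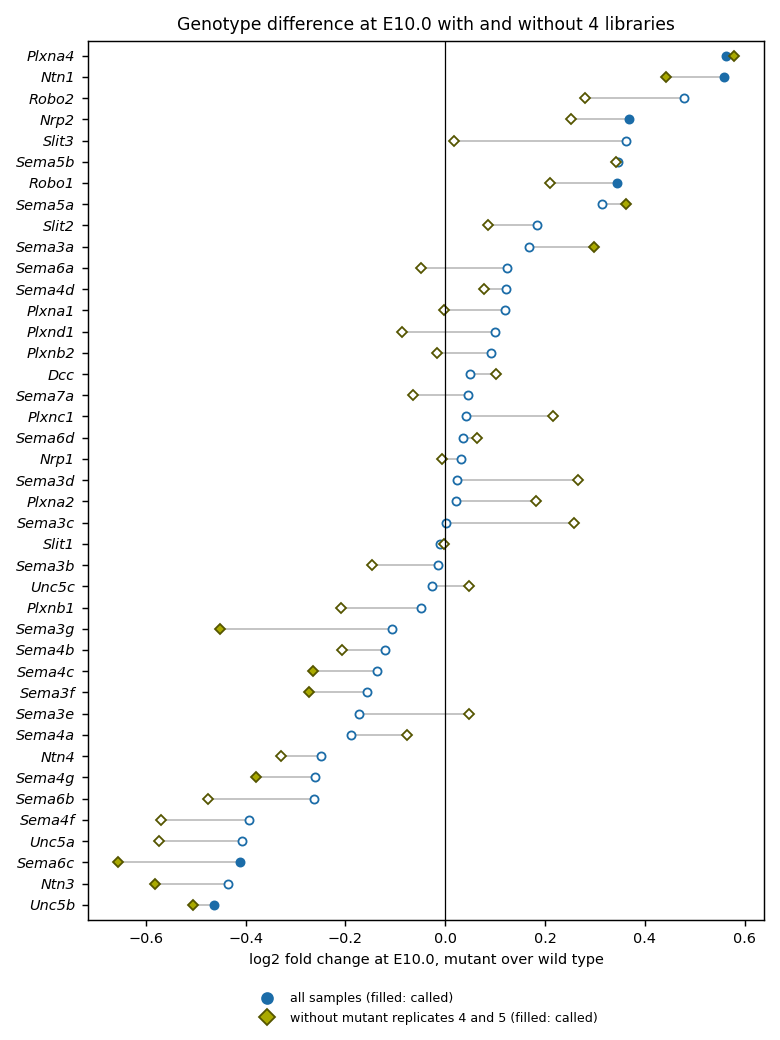
Log2 fold change of mutant over wild type at E10.0 for the 41 guidance genes tested, with all samples (circles) and without mutant replicates 4 and 5 of both stages (diamonds), ordered by the value with all samples; filled symbols are called. With all samples 6 members are filled, and without the 4 libraries 11 are.

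For the members with the smallest p between genotypes, the promoters listed by RefSeq (GRCm38.p6) are shown, since SMAD proteins bind DNA at short motifs. The windows are the 250 bases before the start, 5′ to 3′ on the strand of the gene. Capitals mark a match to CAGACA on either strand, where the other strand reads TGTCTG, and GGCGCC, which reads the same on both strands, was the other motif searched. The windows are Unc5b at chr10:60831582-60831831 (minus strand), Robo1 at chr16:72662899-72663148 (plus strand) and the first of 3 listed starts of Robo2 at chr16:75447294-75447543 (minus strand).
Unc5b: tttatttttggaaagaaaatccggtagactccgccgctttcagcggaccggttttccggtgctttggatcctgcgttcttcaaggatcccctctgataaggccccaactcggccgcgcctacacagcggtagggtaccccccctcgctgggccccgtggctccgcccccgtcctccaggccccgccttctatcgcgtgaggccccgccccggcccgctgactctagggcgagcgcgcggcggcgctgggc
Robo1: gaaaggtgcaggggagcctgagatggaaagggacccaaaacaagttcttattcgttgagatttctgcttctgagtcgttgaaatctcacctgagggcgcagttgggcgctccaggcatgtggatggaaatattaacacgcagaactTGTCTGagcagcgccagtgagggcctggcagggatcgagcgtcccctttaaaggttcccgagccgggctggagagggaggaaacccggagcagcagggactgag
Robo2: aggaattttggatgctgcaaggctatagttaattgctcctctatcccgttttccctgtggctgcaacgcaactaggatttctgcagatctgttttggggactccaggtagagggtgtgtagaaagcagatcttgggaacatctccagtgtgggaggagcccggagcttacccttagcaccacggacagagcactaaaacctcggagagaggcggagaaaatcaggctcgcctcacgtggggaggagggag
The Robo1 window held 1 CAGACA and no GGCGCC, and those of Unc5b and Robo2 held neither. The other listed starts of Robo2 were not searched. The Robo2 window lies at higher coordinates than the mm9 end of the gene at 74412070, which is its 5′ end on the minus strand. The builds were not compared, so the window may not be the promoter of the span given above. Of the 37 members with a listed promoter, 10 held CAGACA and 8 held GGCGCC, whereas 17.1% and 9.54% of all 27025 listed promoters did. Such a match describes letters in the window only. Ntn1, Plxna4 and Sema6a were the other members with the smallest p.

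The other genes of these pathways were counted as lists. Of 18 tested receptors and partners outside the 46 genes, 2 were higher and 1 lower at E10.0, and 2 were higher at E10.5. Lrig1, a membrane protein known for restraining growth factor receptors, was higher in mutants, at 39.6 ± 2.71 CPM against 29.2 ± 3.88 CPM at E10.0 (log2 0.44, edgeR exact test, FDR = 0.00122), and at 69.3 ± 3.54 against 44.97 ± 2.48 CPM at E10.5 (log2 0.62, FDR = 1.03e-07; SD, mutants n=4, wild type n=3). Rgmb, a BMP co-receptor that binds the netrin receptor neogenin, was at 8.17 ± 0.42 and 11.6 ± 1.01 CPM at E10.0 (log2 0.51, FDR = 0.00175) and at 12.4 ± 0.60 and 21.3 ± 1.96 CPM at E10.5 (log2 0.78, FDR = 1.03e-08). The heparan sulphate proteoglycan Gpc1 was lower at E10.0 (log2 -0.43, FDR = 0.0105). Of 47 tested cytoplasmic effectors, 1 was higher and 1 lower at E10.0 and 1 was higher at E10.5. Trio, a guanine nucleotide exchange factor that acts below DCC, was the higher one at both stages (log2 0.46 and 0.48), and Dpysl2, a collapsin response mediator, was the lower one (log2 -0.30).

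Markers of other cells in the bud were read beside these results, and in whole buds fewer cells of a type and less RNA per cell cannot be told apart. The limb mesenchyme was present in all samples, and of its 8 markers 5 were lower in mutants at E10.0 (Prrx1, Prrx2, Twist1, Lhx2 and Tbx5) while at E10.5 4 were lower and Pdgfra was higher. The summed levels were 1668 to 1901 (wild type) and 1416 to 1726 CPM (mutants) at E10.0 and 1869.9 to 2005 and 1682 to 1871 CPM at E10.5. The paper names Prrx2 and Lhx2 among the target genes of SMAD4, so that they do not measure the amount of mesenchyme alone. Of 10 endothelial markers, 1 (Esam) was lower at E10.0 and none was called at E10.5, and their sums overlapped (332 to 376 and 346 to 414 CPM at E10.0, 334 to 351 and 345 to 392 CPM at E10.5). Of 6 tested neuronal markers, Isl1 was higher at E10.0 and none was called at E10.5, with sums of 95.0 to 121 and 91.6 to 101 CPM at E10.0 and of 118 to 136 and 109 to 125 CPM at E10.5. Macrophage markers summed to 2.54 to 5.83 CPM (wild type) and 7.10 to 9.15 CPM (mutants) at E10.0, with 2 of 4 called higher, and to 15.0 to 23.1 CPM in mutants at E10.5 against at most 15.1 CPM in wild type, with none called. Mesothelial markers summed higher in mutants at E10.0 (12.9 to 24.2 against 6.41 to 9.67 CPM) and lower at E10.5 (4.93 to 7.75 against 9.15 to 11.6 CPM). Wt1 and Upk3b were the 2 of 3 tested that were called at either stage. At E10.0 the means of the other markers were lower in mutants, Krt19 at 5.71 against 6.39 CPM and Msln at 0.0543 against 0.0917 CPM. Somite markers Meox1 and Tcf15 were higher and Pax1 lower in mutants at E10.0, and Tcf15 was higher and Pax1 lower at E10.5, with sums of 26.0 to 27.7 and 26.7 to 36.9 CPM at E10.0 and of 41.3 to 48.5 and 26.0 to 28.9 CPM at E10.5. Of the neural crest markers Ngfr was higher at both stages and Erbb3 lower at E10.5 (sums 33.7 to 50.3 and 41.0 to 59.6 CPM at E10.0, 28.3 to 29.1 and 31.7 to 38.8 CPM at E10.5). Of the muscle precursor markers Myf5 was higher at E10.0 (sums 80.4 to 95.5 and 83.2 to 109 CPM), and no marker of limb ectoderm or of erythroid cells was called between the genotypes. At most 1 marker of a list was at 0 in all samples of a group: 1 of neural crest in wild type at E10.0, 1 of somites in both genotypes at E10.0 and 1 of erythroid cells in every group. The part of these cells in the differences of the guidance genes was not tested.

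Between E10.0 and E10.5, 6 guidance genes rose (Robo2, Nrp2, Robo1, Slit1, Ntn1 and Nrp1) and 2 fell (Unc5a and Sema3a) in wild-type buds, where 10.1% of all genes were called (5.39% higher, 4.74% lower). In mutants 10 rose (Robo2, Sema4f, Ntn1, Nrp2, Sema6a, Ntn3, Sema6c, Nrp1, Sema7a and Slit1) and 4 fell (Sema3a, Plxna2, Sema3c and Unc5a), where 19.2% of all genes were called (10.8% higher, 8.4% lower). The median log2 fold change was 0.09 for the 41 members and -0.01 for all genes in wild type, and 0.03 and -0.01 in mutants. The stages did not overlap for 14 members in wild type (37% of all genes) and for 12 in mutants (20% of all genes). Of the 8 members called in wild type, 7 were called in mutants in the same direction (87.5% of 8 and 50% of 14), and Robo1 was the exception. Over all genes, the 878 genes called in both genotypes were 69.9% of the calls in wild type and 37% of those in mutants. Of these, 866 went in the same direction. Without mutant replicates 4 and 5 of both stages, 12 members were called in wild type (14.9% of all genes) and 17 in mutants (17.5% of all genes), and Robo1 was then called higher at E10.5 in mutants as well (log2 0.33, edgeR exact test, FDR = 0.0535). In wild type Sema5b (log2 0.73) and Sema6c (0.37) were added as higher and Plxnd1 (-0.26) and Sema3g (-0.38) as lower, and in mutants Slit3 (0.50), Sema4g (0.41) and Plxnb1 (0.35) as higher. The quasi-likelihood test called 6 members in wild type (8.96% of all genes), where Nrp1 (FDR = 0.113) and Ntn1 (FDR = 0.104) were lost. In mutants it called the same 14 as the exact test (18.6% of all genes). The comparisons of stages use the same samples as those of genotypes.

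**Figure D5:**
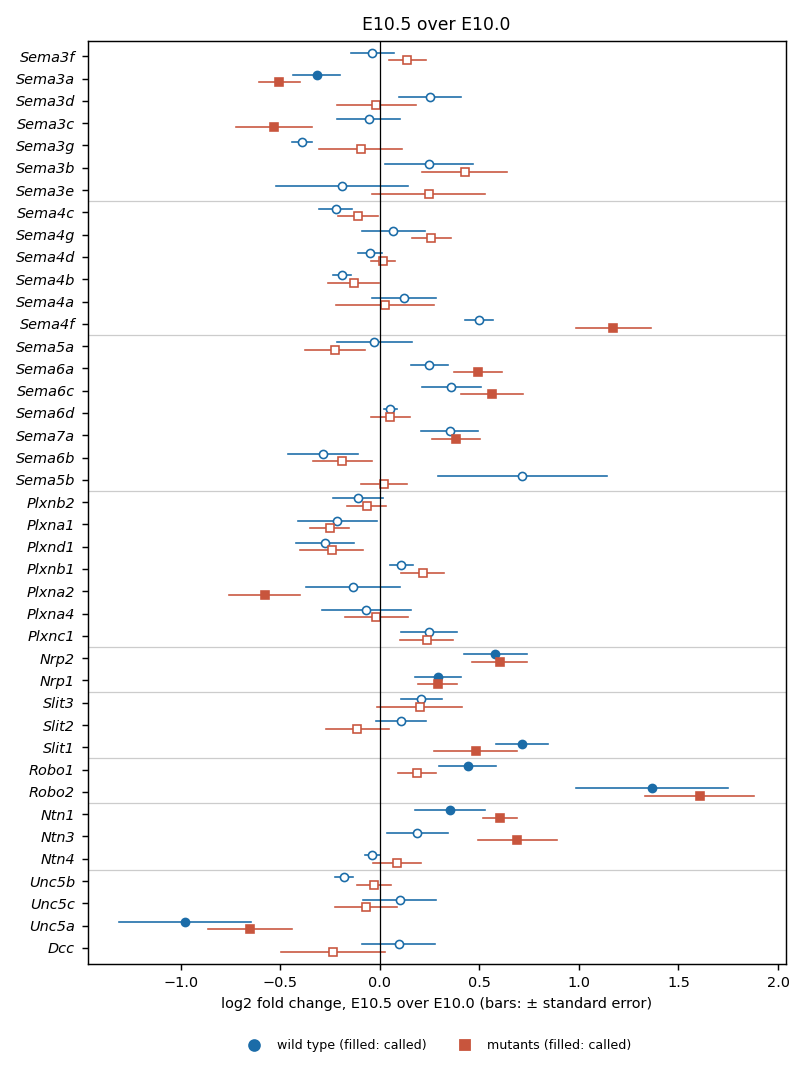
Log2 fold change of E10.5 over E10.0 for the 41 guidance genes tested, in wild type (circles) and mutants (squares), grouped by role; bars are ± 1 standard error and filled symbols are called. Robo2 lies farthest to the right in both genotypes, at 1.37 in wild type and 1.61 in mutants.

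Robo2 had the largest log2 fold change of the 41 members in both genotypes. It went from 34.7, 15.2 and 26.5 CPM to 55.6, 62.5 and 79.3 CPM in wild type, and every sample of E10.5 was above every sample of E10.0 (log2 fold change 1.37 ± 0.38, edgeR exact test, FDR = 6.63e-06). In mutants it went from 40.7, 20.5, 33.5 and 47.2 to 126, 103, 105 and 98.4 CPM (log2 fold change 1.61 ± 0.27, edgeR exact test, FDR = 2.75e-11), also without overlap. Robo1 rose in wild type from 111, 95.4 and 88.4 to 132, 117 and 151 CPM (log2 fold change 0.44 ± 0.14, edgeR exact test, FDR = 0.00423), a call that was lost without wild-type replicate 3 of E10.5 (log2 0.35, FDR = 0.115). In mutants its log2 fold change was 0.19 ± 0.09 with all samples (edgeR exact test, FDR = 0.197). Slit1, the least abundant of the Slits, rose in wild type from 1.57, 1.25 and 1.17 to 2.11, 2.16 and 2.30 CPM (log2 fold change 0.72 ± 0.13, edgeR exact test, FDR = 0.0328). That call was lost without wild-type replicate 2 or 3 of E10.0 or replicate 3 of E10.5 (FDR 0.166 to 0.201). In mutants the stages overlapped for Slit1 (log2 fold change 0.48 ± 0.21, edgeR exact test, FDR = 0.0947), and the call was lost with 11 of the 14 samples left out singly (FDR 0.103 to 0.275), so that it stood only without wild-type replicate 1 or mutant replicate 4 of E10.0 or mutant replicate 5 of E10.5.

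Both neuropilins rose in both genotypes. Nrp2 rose from 144 ± 27.5 CPM to 215 ± 11.2 CPM in wild type (SD, n=3; log2 fold change 0.58 ± 0.16, edgeR exact test, FDR = 0.000948) and from 185 ± 27.4 CPM to 281 ± 30.5 CPM in mutants (SD, n=4; log2 fold change 0.60 ± 0.14, edgeR exact test, FDR = 1.05e-05). Neither genotype's stages overlapped. Nrp1 went from 74.4, 61.2 and 65.7 to 82.3, 74.3 and 90.1 CPM in wild type, where the stages just overlapped (log2 fold change 0.29 ± 0.12, edgeR exact test, FDR = 0.0880), and from 70.3, 61.8, 69.7 and 72.7 to 94.7, 85.4, 83.7 and 71.7 CPM in mutants, where replicate 5 of E10.5 lay within the range of E10.0 (log2 fold change 0.29 ± 0.10, edgeR exact test, FDR = 0.0195). In wild type the call for Nrp1 was lost without replicate 2 or 3 of E10.0 or replicate 1 or 3 of E10.5 (FDR 0.139 to 0.473), and in mutants without replicate 3 of E10.0 (FDR = 0.108) or, by its fold change alone, replicate 1 of E10.5 (log2 0.23). Plxna2, the plexin through which class 3 and class 6 semaphorins act in the cerebellum and hippocampus, fell in mutants from 70.9, 105, 77.8 and 65.05 to 56.8, 59.2, 53.6 and 43.9 CPM (log2 fold change -0.58 ± 0.18, edgeR exact test, FDR = 0.00151). In wild type its log2 fold change was -0.13 ± 0.24.

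Ntn1 rose in both genotypes, with overlapping stages in wild type (log2 fold change 0.35 ± 0.18, edgeR exact test, FDR = 0.0577) and separate ones in mutants (log2 fold change 0.60 ± 0.08, edgeR exact test, FDR = 8.44e-07). The wild-type call was lost without replicate 2 or 3 of E10.0 or replicate 3 of E10.5 (FDR 0.21 to 0.446). Ntn3 rose in mutants from 11.97, 12.2, 18.00 and 11.9 to 18.4, 28.1, 21.1 and 19.4 CPM (log2 fold change 0.69 ± 0.20, edgeR exact test, FDR = 0.000172), while in wild type it was at 19.5, 16.99 and 18.2 and 25.1, 18.4 and 18.9 CPM (log2 0.19 ± 0.15). Unc5a, a netrin receptor known from neurons, fell in wild type from 2.89, 3.11 and 3.39 to 2.38, 1.30 and 1.12 CPM (log2 fold change -0.98 ± 0.33, edgeR exact test, FDR = 0.00673), without overlap but lost without replicate 3 of E10.5 (log2 -0.77, FDR = 0.146). In mutants Unc5a fell from 1.74, 2.41, 2.29 and 3.02 to 1.48, 1.66, 1.73 and 1.11 CPM (log2 fold change -0.65 ± 0.21, edgeR exact test, FDR = 0.0319). In the fit blocked by replicate number it was not called in mutants (edgeR quasi-likelihood test, FDR = 0.109), nor without replicate 5 of either mutant stage (FDR 0.128 and 0.132) or without replicates 4 and 5 of both (log2 -0.40, FDR = 0.479).

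Of the semaphorins, Sema3a fell in both genotypes. In wild type it went from 139, 156 and 126 to 111, 104 and 124 CPM (log2 fold change -0.32 ± 0.12, edgeR exact test, FDR = 0.0641), and in mutants from 154, 188, 148 and 142 to 117, 119.7, 104 and 105 CPM (log2 fold change -0.51 ± 0.10, edgeR exact test, FDR = 1.00e-05), and the stages did not overlap in either. The wild-type call was lost without replicate 1 or 2 of either stage (FDR 0.116 to 0.416). Sema3c fell in mutants from 18.8, 19.96, 14.3 and 12.4 to 12.5, 12.9, 9.99 and 9.90 CPM, where mutant replicate 5 of E10.0 lay within the range of E10.5 (log2 fold change -0.53 ± 0.19, edgeR exact test, FDR = 0.00499). Sema4f, a class 4 semaphorin found in neurons and glia, rose in mutants from 0.907, 0.866, 1.37 and 0.984 to 1.76, 2.48, 2.58 and 2.41 CPM (log2 fold change 1.17 ± 0.19, edgeR exact test, FDR = 4.50e-07). In wild type Sema4f was at 1.43, 1.29 and 1.28 and 1.75, 1.94 and 1.95 CPM, also without overlap and not called (log2 0.50 ± 0.07, FDR = 0.177 by the same exact test).

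Sema6a, Sema6c and Sema7a rose in mutants. Sema6a went from 30.1, 30.7, 37.2 and 40.8 to 50.3, 46.1, 53.5 and 45.3 CPM (log2 fold change 0.49 ± 0.12, edgeR exact test, FDR = 6.88e-05) and Sema6c from 12.02, 11.03, 14.8 and 17.5 to 19.3, 20.2, 21.8 and 20.4 CPM (log2 fold change 0.56 ± 0.15, edgeR exact test, FDR = 0.000490). Sema7a, which is tied to the membrane by a lipid anchor and binds plexin C1 and integrins, went from 5.39, 4.02, 5.60 and 5.58 to 7.17, 6.44, 6.79 and 6.35 CPM (log2 fold change 0.38 ± 0.12, edgeR exact test, FDR = 0.0451). The stages did not overlap for any of the 3 genes, and the call for Sema7a was lost without mutant replicate 3 of E10.0 or replicate 1 of E10.5 (FDR 0.209 and 0.115). In wild type they were not called, with log2 fold changes of 0.25 (Sema6a), 0.36 (Sema6c) and 0.35 (Sema7a). With the replicate block, 14 members were called in mutants (20.9% of all genes) and Sema3b was among them, higher at E10.5 (log2 0.51, edgeR quasi-likelihood test, FDR = 0.0579). The same block called 9 in wild type (14.2% of all genes). The 24 members called in no comparison by the exact test with all samples had log2 fold changes of -0.39 to 0.72 between stages in wild type and of -0.25 to 0.43 in mutants. Robo3 was near 0 in all samples, at no more than 0.156 CPM. With no filter it was called higher at E10.5 in mutants (log2 2.88, edgeR exact test, FDR = 0.0096) and in no other comparison.

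Among the other genes of the pathways, 3 receptors or partners rose and 2 fell of 18 tested in wild type, and 4 rose and 3 fell in mutants. Lrig1 (log2 0.62 in wild type, 0.81 in mutants) and Rgmb (0.60 and 0.87) rose and Cntn2, an adhesion protein of axons, fell (-0.70 and -0.94) in both. Ntng1 fell (-0.64 and -0.48) and Plxdc2 rose (0.33 and 0.54) in both as well. Of 47 effectors tested, Dpysl4 rose (0.41 and 0.50) and Crmp1 fell (-0.66 and -0.72) in both genotypes, and Pak1 rose (0.30) and Farp2 fell (-0.38) in mutants. Macrophage markers rose with stage (4 of 4 tested in each genotype), and the neuronal markers Nefm and Nefl fell and Stmn2 rose in mutants. Myf5 (log2 3.15 in wild type, 1.62 in mutants) and Pax1 (2.53 and 2.79) rose in both, and Ngfr, Lhx2 and Msx1 fell in both. The mesothelial marker Wt1 rose in wild type (1.13) and fell in mutants (-2.67), and Upk3b fell in mutants (-4.14). Muscle precursor marker Lbx1 fell in wild type. In mutants mesenchymal Tbx5 and Pdgfra and ectodermal Krt14 rose, and endothelial Kdr and Egfl7, ectodermal Trp63, Pax3 and Meox1 fell. No erythroid marker was called. The part of these markers in the stage differences was not tested.

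The interaction of stage and genotype was called for none of the 41 guidance genes, with 0.186% of all genes called at an FDR of 0.1 in edgeR's quasi-likelihood test. Before adjustment 1 member, Sema4f, passed 0.05, as did 5.76% of all genes (log2 0.67 ± 0.20, edgeR quasi-likelihood test, FDR = 0.780). Its means were 1.33 ± 0.0828 CPM (wild type, SD, n=3) and 1.03 ± 0.229 CPM (mutants, SD, n=4) at E10.0, and 1.88 ± 0.111 CPM and 2.31 ± 0.370 CPM at E10.5. DESeq2 called none (0.702% of all genes) and had 3 members under 0.05 before adjustment (Ntn3, Sema3c and Sema4f), where 6.3% of all genes were. The fit blocked by replicate number called none (0.145% of all genes) and had 2 (Sema3c and Sema4f, 8.24% of all genes). Without mutant replicates 4 and 5 none was called either (0.0488% of all genes), and 7 were under 0.05 before adjustment (Sema3g, Sema6a, Ntn3, Sema3c, Sema4f, Plxnb1 and Sema6c), where 7.49% of all genes were. Calls made at one stage or in one genotype alone, such as those of Robo1, Robo2, Sema6a, Sema6c and Sema3c, were therefore not shown to differ between stages or genotypes.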

How the data were processed

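The authors sequenced polyA RNA libraries (single reads, unstranded), aligned them to mm9 with TopHat2 2.0.13, and ran HTSeq on the uniquely mapped reads, without regard to strand. The deposited values are these raw counts, 1 table per sample. The 46 members were matched by symbol. As in the study's methods, the 1041 symbols placed on X, Y or M were not tested, genes with a CPM of at least 1 in at least 3 samples were tested, and edgeR 4.0.16 (R 4.3.3) was run with TMM, tag-wise dispersions (prior df 10) over all 14 samples, its exact test and Benjamini-Hochberg adjustment. The exact test was taken from those methods in place of the quasi-likelihood test, which served for the interaction and as an alternative beside DESeq2 1.42.0. Standard errors come from log2 CPM with a prior count of 2. CPM per kilobase used GENCODE M1 exons. Each named member was called in some comparison, or is given by its range. Tested on simulated counts, the exact test gave more false calls than its nominal FDR in each of the 4 comparisons, and the quasi-likelihood test of the interaction did not. The members and all lists were chosen with earlier results of these data known.

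Groups share replicate numbers. The deviations from the group mean correlated between samples of the same number at 0.497, 0.556 and 0.214 between stages in mutants (replicates 1, 4 and 5). Replicates 4 and 5 are also the libraries rich in ribosomal RNA precursor. Mutant samples of unlike number had 0.103 to 0.298 between stages when both or neither were such libraries, and -0.487 to -0.13 otherwise. The values of replicates 1 and 4 were above the range of unlike numbers and that of replicate 5 within it. These values do not settle a pairing, and the replicate block takes the numbers as given. In the other comparisons samples of the same number ranged from -0.23 to 0.141. Replicates of a group differed by more than sampling noise (chi-square per degree of freedom at least 12.9), and none were merged.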

Additional observations from a re-analysis of the deposited data

Results flagged for a closer look

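In groups of 4, a sample was singled out when its gap to the nearest other sample, over the whole range, exceeded Dixon's 95% critical value; of 84 such groups of member values 7 were singled out, and chance does so for about 1 in 20. At E10.0 mutant replicate 4 had Ntn3 at 18.0 CPM (11.9 to 12.2 in the other mutants), Sema4b at 11.8 CPM (8.96 to 9.12) and Sema5a at 173 CPM (189 to 191). At E10.5 mutant replicate 4 had Plxna1 at 196 CPM (175 to 177) and Slit3 at 55.4 CPM (44.0 to 45.6). Mutant replicate 5 of E10.0 had Unc5c at 39.7 CPM (45.3 to 46.3), and mutant replicate 3 of E10.0 had Sema7a at 4.02 CPM (at least 5.39). Of the 7 values, 6 come from replicates 4 and 5, the libraries with the most ribosomal RNA precursor (1.72% to 8.05% of reads on genes), and its part in them was not tested.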

How the results depend on the processing

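The 6 guidance genes called between genotypes at E10.0 were 11 without mutant replicates 4 and 5, and the 7 called at E10.5 were 3 with the quasi-likelihood test and 3 with the replicate block; the cause was not tested. With each sample left out in turn, 2 to 8 were called at E10.0, 2 to 8 at E10.5, 3 to 9 between stages in wild type, 11 to 15 in mutants and 0 for the interaction. Shares of all genes called are not given for these fits, so that these ranges cannot be set against those of all genes. The other counts stayed within 1.5 times their main value under DESeq2, RLE normalization, other filters on low counts, chromosomes X, Y and M kept and each stage fitted apart. Among single members no called value changed sign: with a sample left out, the 35 calls were kept in 418 of 490 values and lost in 72, and 23 of 2380 values not called gained a call. Under the other settings 262 of 290 were kept and 28 lost, and 22 of 1371 gained one. DESeq2 lost Robo2 and Sema3c at E10.5. The replicate block called 6 members at E10.0 (Robo1 and Nrp2 lost, Sema3a and Sema5a added), 9 between stages in wild type (Sema7a added) and 14 in mutants. It fits the level of mutant replicates 4 and 5 apart, since wild type has none of these numbers. Between genotypes it is therefore not a separate check from the fit without those replicates. In mutants it changed no call but those of Unc5a and Sema3b. Between genotypes and in wild type the samples share only a number, and in mutants the correlations do not settle a pairing. At E10.5 it lost Nrp2, Robo2, Sema3c and Sema6a. Over all genes, the calls at E10.0 were 819, 2018 without mutant replicates 4 and 5 and 1961 with the block, those at E10.5 462 and 280 with the block, and those for the interaction 23, 87 by DESeq2 and 6 without those replicates. The filter on CPM kept Unc5d, Robo3 and Ntn5 out of the main tests, as they are under 1 CPM in most or all samples.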
